A study of Mus musculus with 40 samples.

Results

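The neurofilament genes Nefl, Nefm and Nefh and the internexin gene Ina were followed across the midbrain and the spinal cord of an MPTP mouse model of Parkinson's disease. The genes were chosen by name as the neuronal intermediate filament genes of the central nervous system, and all 4 were found among the 40213 gene symbols of the count files. All 4 passed the filter on low counts in both tissues. RNA-seq counts came from 40 libraries, with 4 libraries for each of 5 groups in each tissue. All mice were male C57BL/6N animals of 8 weeks. Con mice received saline in place of MPTP, and saline at the acupoint GB34 as well. MPTP-Veh mice received MPTP, a toxin that damages dopamine neurons, at 20 mg/kg intraperitoneally in 4 injections spaced by 2 h, and saline at the acupoint GB34 in place of the extract. MPTP-SU mice received the same MPTP course and then SUEHP, an herbal extract (SU-Eohyeol pharmacopuncture), injected at GB34 4 times from 1 week after the toxin. MPTP-SU+S mice received in addition the CB1 cannabinoid receptor antagonist that the labels spell SR141714A, at 3 mg/kg, and MPTP-SU+T mice received in its place the PPARγ inhibitor T0070907 at 5 mg/kg. None of these libraries came from mice given an antagonist without SUEHP, or SUEHP without MPTP, so the effect of an antagonist alone cannot be told apart from its effect on the response to SUEHP. The labels did not state that the libraries came from separate animals, so the p-values below measure the spread between libraries, which may in part be technical.

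Neurofilaments are the main intermediate filaments of large myelinated axons, where they set axon calibre and with it conduction speed. They are built as heteropolymers of the light chain (Nefl), the medium chain (Nefm) and the heavy chain (Nefh), with α-internexin (Ina) as a further subunit in the central nervous system. The light chain forms the core of the filament, while the long tails of the medium and heavy chains project outwards and carry repeated lysine-serine-proline motifs (KSP) that are phosphorylated in axons. α-Internexin is made early in neuronal development and can form filaments by itself. Peripherin (Prph), the related filament protein of motor and sensory neurons, was kept apart as a comparison gene.

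In the reference annotation (RefSeq, GRCm38.p6), Nefl and Nefm are direct neighbours on chromosome 14, on opposite strands, between the protein-coding genes Dock5 and Adam7. Nefh lies on chromosome 11 between Thoc5 and Ap1b1, and Ina on chromosome 19 between Nt5c2 and Pcgf6. The coding sequences set the 4 genes apart in the tail motif. Among the GENCODE vM21 transcripts with the longest coding sequence, Nefh held 51 KSP codon triplets in 1090 codons, all in exon 4 between codons 522 and 887, and Nefm held 4 in 848 codons, all in exon 3 between codons 501 and 609. Nefl (543 codons) and Ina (501 codons) held none. The stretches of 40 codons with the most KSP triplets are shown because they are the sequence difference between the core chain and the tail-bearing chains whose messages moved most below. They are written 5′ to 3′ on the coding strand, with each lysine-serine-proline triplet in capitals. The Nefh stretch (GRCm38 chr11:4940938-4941057, minus strand, exon 4, codons 521 to 560) held 7 triplets and the Nefm stretch (GRCm38 chr14:68121063-68121182, minus strand, exon 3, codons 468 to 507) held 2.
Nefh: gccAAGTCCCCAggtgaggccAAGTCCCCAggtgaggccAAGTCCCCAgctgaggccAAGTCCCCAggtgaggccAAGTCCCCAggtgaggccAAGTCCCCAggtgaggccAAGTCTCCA
Nefm: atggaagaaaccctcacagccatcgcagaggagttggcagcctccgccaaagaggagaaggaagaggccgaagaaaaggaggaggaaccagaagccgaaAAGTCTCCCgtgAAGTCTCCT
The coordinates belong to the reference build, GRCm38, while the submitters' processing notes name GRCm39 for the counts, so they locate the sequence and not the reads. The expression values below are sums over a whole gene and say nothing of which transcript was read.

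Total counts lay between 11958200 and 16639823 per midbrain library and between 14642808 and 16615378 per spinal cord library. The 4 genes together took 0.170 to 0.445% of midbrain counts and 0.729 to 1.00% of spinal cord counts, and no member had fewer than 3566 counts in any library. Some of the genes outside these 4 rested on fewer counts, with as few as 22 in a midbrain library for Prph and 84 for Nes. The tissue labels held: the 10 Hox genes of spinal position summed, in counts-per-million (CPM), to at least 561 in every spinal cord library and at most 2.07 in every midbrain library. Th, the rate-limiting enzyme of dopamine synthesis and a marker of the cells that MPTP damages, ranged from 26.3 to 58.7 CPM in Con and from 17.02 to 110 CPM in MPTP-Veh midbrain, so the groups overlapped in it. One library stood apart. Library 4 of midbrain MPTP-Veh had 1.35% mitochondrial counts against 9.92 to 17.5% in the other midbrain libraries, and its oligodendrocyte markers summed to 36099 CPM against at most 15143 CPM elsewhere in the midbrain. Not every marker of that list was raised: Mbp reached at most 5540 CPM in midbrain MPTP-Veh and 5961 CPM in MPTP-SU+S. The main midbrain results against MPTP-Veh are therefore given with and without library 4. In whole tissue, fewer neurons and less message per neuron cannot be told apart.

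Levels of different genes were compared per length, as transcripts-per-million (TPM, counts per base of the longest reference transcript, scaled to the same total in every library). In the midbrain the median over 20 libraries was 723 TPM for Nefl (range 563 to 897), 434 TPM for Nefm (295 to 1202), 331 TPM for Nefh (225 to 479) and 310.0 TPM for Ina (183 to 348). Nefl exceeded Nefm in 19 of 20 libraries, the exception being library 4 of MPTP-Veh. Nefm exceeded Nefh in 20 of 20. Nefh and Ina did not differ beyond their spread, with Nefh above Ina in 11 of 20, among them all 8 libraries of Con and MPTP-Veh. In the spinal cord the median was 2708 TPM for Nefm (2226 to 3332) and 2682 TPM for Nefl (2223 to 3072), ranges that largely coincided, with Nefl above Nefm in 7 of 20 libraries. Nefh followed at 1899.8 TPM (1642 to 2202), below the range of both, and Ina at 384 TPM (306 to 401). By median TPM, Nefm ranked 14, Nefl 16 and Nefh 27 among all genes with a length in the spinal cord, where Ina ranked 319. In the midbrain the ranks were 107 for Nefl, 244 for Nefm, 340 for Nefh and 372 for Ina. As shares of the 4 genes' summed TPM, Ina had a midbrain median of 17.4% and a spinal cord median of 4.95%, while Nefm went from 24.4 to 35.5% and Nefh from 18.2 to 25.0%. Nefl changed least, from 39.9 to 34.6%. TPM values depend on the transcript length chosen: with the mean transcript length in place of the longest, the median TPM of Nefl in the midbrain was 433.

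**Figure D1:**
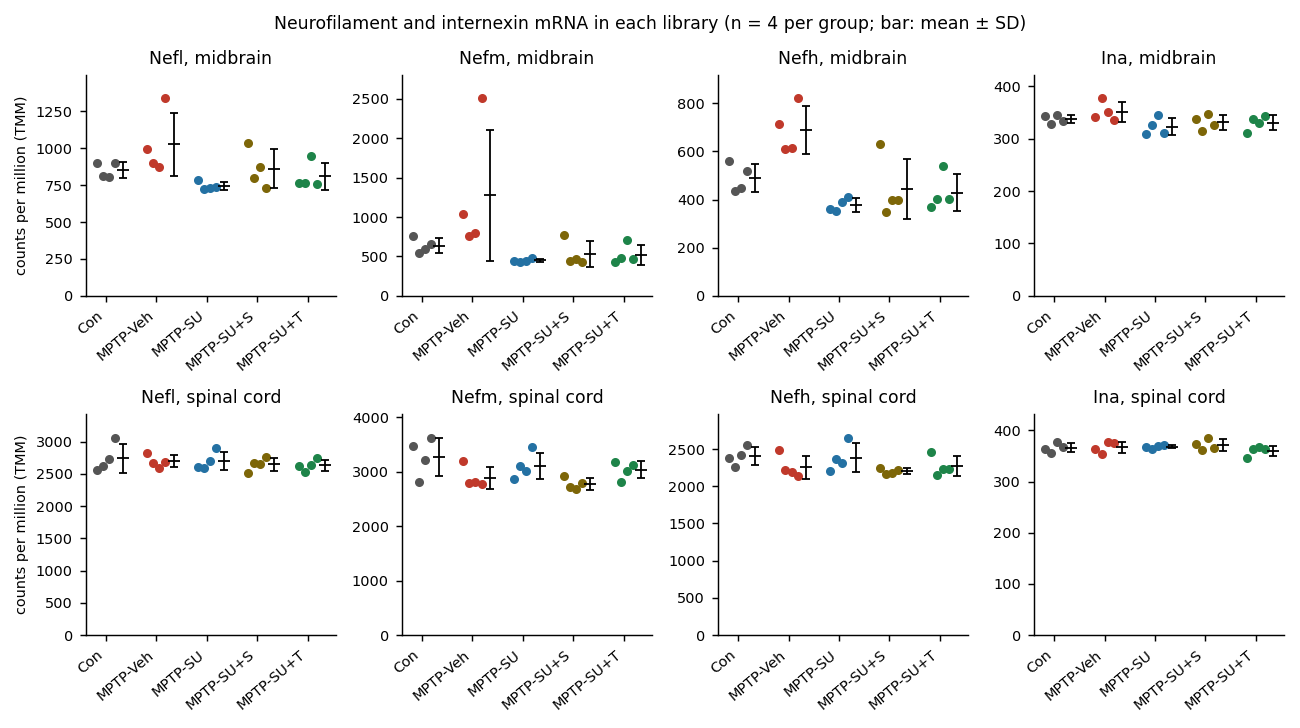
Each panel plots CPM (y axis, from 0, scaled with trimmed-mean factors) of 1 gene in 1 tissue, with 4 points per group for the 4 libraries and a bar for their mean ± SD. In the midbrain the MPTP-SU libraries sit below every MPTP-Veh library for Nefl, Nefm and Nefh and overlap them for Ina, while in the spinal cord the 5 groups overlap for every gene apart from Nefh between Con and MPTP-SU+S.

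The comparison of the tissues asks where the axonal filament genes were used most. In Con mice the 3 neurofilament genes were higher in the spinal cord than in the midbrain, and Ina was close to equal. Nefm, the medium chain, measured 757, 544, 592 and 655 CPM in the 4 Con midbrain libraries and 3463, 2816, 3212 and 3615 CPM in the 4 spinal cord libraries. The spinal cord was higher by 2.35 on the log2 scale (SE 0.23, adjusted p = 5.46e-10, edgeR quasi-likelihood test, 5.09-fold). Nefh, the heavy chain, measured 559, 435, 447 and 519 CPM in midbrain and 2384, 2254, 2417 and 2556 CPM in spinal cord. Its difference was 2.28 (SE 0.13, adjusted p = 5.89e-16). Nefl, the core chain, measured 899, 809, 802 and 896 CPM in midbrain and 2554, 2618, 2726 and 3061 CPM in spinal cord, a difference of 1.67 (SE 0.10, adjusted p = 3.1e-15). For these 3 genes the lowest spinal cord library lay far above the highest midbrain library. Ina measured 343, 329, 344 and 333 CPM in midbrain and 364, 356, 378 and 367 CPM in spinal cord, so the libraries did not overlap, as for 37.3% of all genes, but the difference was 0.11 (SE 0.05, adjusted p = 0.125). A gene was called when its adjusted p was below 0.05 and its fold change above 1.5, and by this rule 3 of the 4 were called where 16.4% of all 17426 genes tested were (9.02% as higher). Nefl, Nefm and Nefh were called in each of the other groups, with differences of 1.39 to 1.85 for Nefl, 1.18 to 2.78 for Nefm and 1.71 to 2.65 for Nefh. The lowest value of each was in MPTP-Veh and the highest in MPTP-SU, and these come from the midbrain libraries described below. In MPTP-Veh the Nefm difference was 1.18 (SE 0.22) with library 4 and 1.74 (SE 0.16) without it. Ina differed by 0.06 to 0.18 over the 5 groups and was called in none, although its adjusted p was 0.00533 in MPTP-SU and 0.0163 in MPTP-SU+S. Of all genes, 31.6% were called in MPTP-Veh and 20.2% in MPTP-SU, against 18.5% with the CB1 antagonist and 19.4% with the PPARγ inhibitor.

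The related genes differed between the tissues of Con mice as well, where 9.02% of all genes were called as higher in the spinal cord and 7.39% as lower. Among 12 other intermediate filament genes, 5 were called as higher in the spinal cord and none as lower, with a median difference of 0.59 beside −0.02 over all genes. Prph was higher by 3.52 (SE 0.30, adjusted p = 1.84e-11), from a mean of 5.39 CPM in midbrain to 62.5 CPM in spinal cord. Nes (nestin, the filament of neural progenitors) was higher by 2.09 (SE 0.36, adjusted p = 1.78e-05), and Gfap, the astrocyte filament, by 1.79 (SE 0.26, adjusted p = 1.46e-06). The others called were Synm, at 1.26, and Sync, at 1.49. Vim (vimentin, of glia and vessels) differed by 0.57 with an adjusted p of 0.0150, under the fold threshold. Of 14 genes for filament linkers and the motors of slow axonal transport, 6 were called as higher, led by the kinesin heavy chain Kif5b at 1.61 (SE 0.08) and the linker dystonin, Dst, at 1.01 (SE 0.08). Of 10 genes for filament turnover, 4 were called as higher, among them the calpain inhibitor Cast at 1.22 (SE 0.10) and the small heat shock protein Hspb1 at 1.15 (SE 0.20). Of 18 genes of the axonal microtubule and spectrin cytoskeleton, 2 were called as higher (Map1a at 0.81 and Map1b at 0.84) and 1 as lower (Tubb2a at −0.60). Of 14 genes for kinases, phosphatases and the proline isomerase that act on the tails, none was called as higher and 1 as lower, the Cdk5 activator Cdk5r1, at −0.87 (SE 0.15). Of 5 proteins that bind neurofilament mRNA, 1 was called as higher, Arhgef28, at 0.59 (SE 0.11).

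Markers of other cells moved with the tissue of Con mice, beside 9.02% of all genes called as higher in the spinal cord and 7.39% as lower. Of 9 genes of motor and cholinergic neurons, 8 were called as higher in the spinal cord. Chat, the acetylcholine-making enzyme of motor neurons, ranged from 19.1 to 24.7 CPM in Con spinal cord against 0.238 to 4.13 CPM in Con midbrain. Pan-neuronal genes did not move the same way: of 12, none was called as higher and 2 as lower, with a median difference of −0.13. Of 9 tested genes of dorsal root ganglia and spinal roots, 4 were called as higher, while the sensory neuron channel Scn10a ranged from 0 to 0.0753 CPM in Con spinal cord. All 8 skeletal muscle genes were called as higher in the spinal cord. The part of these cells in the neurofilament difference was not tested.

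The comparison of MPTP-SU with MPTP-Veh asks what the extract changed in MPTP-treated mice. In the midbrain the medium and heavy chains were lower after SUEHP, the light chain was lower by a smaller fold, and Ina was nearly level. Nefm measured 436, 435, 437 and 486 CPM in MPTP-SU and 1043, 762, 796 and 2506 CPM in MPTP-Veh. Every MPTP-SU library was below every MPTP-Veh library, and library 4 of MPTP-Veh lay far above the other 3. Nefm fell by 1.51 on the log2 scale (SE 0.30, 95% interval −2.14 to −0.87, adjusted p = 0.0074). Nefh measured 359, 352, 391 and 412 CPM in MPTP-SU and 712, 611, 613 and 821 CPM in MPTP-Veh, again without overlap, and fell by 0.86 (SE 0.17, −1.21 to −0.52, adjusted p = 0.00624). Nefl measured 786, 725, 731 and 736 CPM against 995, 899, 872 and 1338 CPM, also without overlap. Its fold change of −0.46 (SE 0.13, −0.74 to −0.19, adjusted p = 0.0260) passed the p threshold and not the fold threshold. Ina measured 309, 326, 344 and 311 CPM against 341, 377, 350 and 335 CPM, with overlapping groups and a fold change of −0.12 (SE 0.07, adjusted p = 0.221). Of the 4 genes, 2 were called as lower, where 13.5% of 16629 genes were called (9.1% as lower), and 3 of the 4 had groups that did not overlap, as was the case for 21.9% of all genes (11.3% as lower).

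Leaving out library 4 of MPTP-Veh moved the size of these changes and not their direction. Without it, Nefm fell by 0.95 (adjusted p = 0.00322) and Nefh by 0.77 (adjusted p = 0.00411), and both were still called, while the share of all genes called dropped to 3.4% (572 of 16831). Nefl then fell by 0.31 (adjusted p = 0.0477), and Ina differed by −0.14 (adjusted p = 0.129). On the per-length scale library 4 was high only for Nefm (1202 TPM, against 753, 619 and 676 TPM in libraries 1 to 3). At 699 TPM for Nefl, 363 TPM for Nefh and 183 TPM for Ina it was below the other libraries of its group. The fold changes of Nefm and Nefh were negative under each of 23 other settings, from −1.69 to −0.88 for Nefm and from −0.91 to −0.55 for Nefh. Among these settings is the adjusted p alone, which leaves the fold changes as they were. Their adjusted p ranged from 3.32e-05 to 0.223 and from 4.57e-05 to 0.216. The upper ends came from the fit on the 8 libraries of the compared groups alone, in which no gene of 15764 was called. In that fit without library 4 both genes were called again (adjusted p = 0.00279 each), beside 3.58% of all genes. With a trend on GC content and length removed, Nefm fell by 1.07 (adjusted p = 0.00278) and Nefh by 0.57 (adjusted p = 0.0159, 9.7% of genes called), the latter under the fold threshold. Ina, not called in any setting, turned from −0.12 to 0.08 there. The longest transcripts of Nefm and Nefh have 57.8 and 58.4% GC, above 91.1 and 92.7% of genes, against 48.8% for Nefl and 55.5% for Ina.

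**Figure D2:**
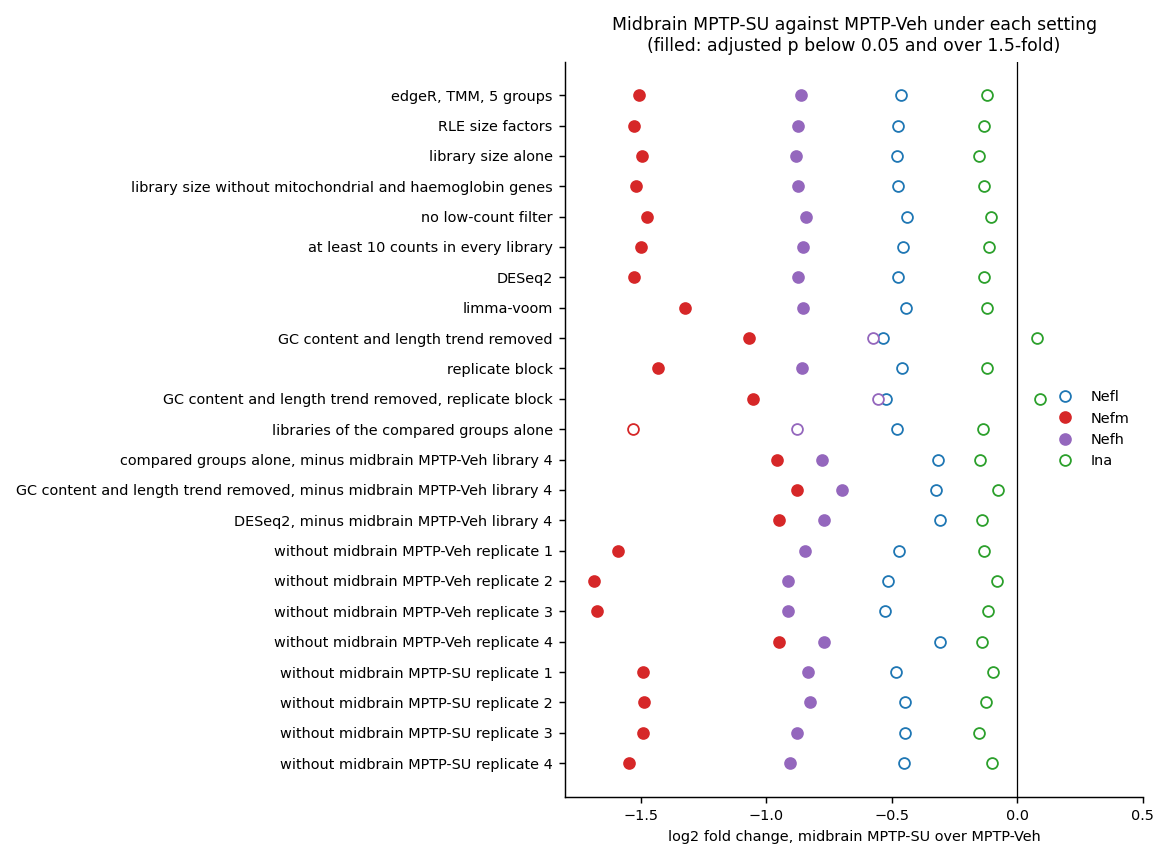
The x axis gives the log2 fold change of midbrain MPTP-SU over MPTP-Veh and each row 1 way of computing it, with 1 circle per gene, filled where the adjusted p was below 0.05 and the fold above 1.5. Nefm and Nefh stay left of 0 in every row, from −1.69 to −0.88 and from −0.91 to −0.55, and Nefm lies nearest to 0 in the rows without library 4 of MPTP-Veh.

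MPTP-Veh was set against Con, groups that differed by MPTP. Their midbrain libraries also differed in the sum of 10 forebrain genes, at 702 to 1822 CPM in Con and 384 to 536 CPM in MPTP-Veh. The part of that difference in the values below was not tested. In the midbrain Nefm and Nefh had higher values in MPTP-Veh without passing the test. The Con libraries measured 757, 544, 592 and 655 CPM for Nefm, all below the lowest MPTP-Veh library at 762 CPM. The fold change was 1.00 (SE 0.30, 0.38 to 1.63, adjusted p = 0.130), and 0.45 without library 4 (adjusted p = 0.354). For Nefh the Con libraries measured 559, 435, 447 and 519 CPM, all below the lowest MPTP-Veh library at 611 CPM, with a fold change of 0.49 (SE 0.17, 0.15 to 0.84, adjusted p = 0.132), or 0.40 without library 4 (adjusted p = 0.325). Nefl differed by 0.27 (adjusted p = 0.221) and Ina by 0.06 (adjusted p = 0.627), with overlapping groups, or by 0.11 and 0.08 without library 4. Groups without overlap were seen for 12.4% of all genes (6.37% as higher), and 0.018% of genes were called. At an unadjusted p below 0.05 stood 3945 genes. The call on Nefm changed with the tool and with the libraries kept. DESeq2 gave 1.02 with an adjusted p of 0.0383, where 2.68% of all genes were called. Without library 3 of MPTP-Veh, edgeR gave 1.17 with an adjusted p of 0.0432, and more genes were called than with that library kept.

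MPTP-SU midbrain was also set against Con. Nefl, Nefm and Nefh had lower values in all 4 MPTP-SU libraries than in any Con library, as did 10.9% of all genes (19.6% without overlap in either direction). The fold changes were −0.19 for Nefl (adjusted p = 0.506), −0.50 for Nefm (adjusted p = 0.428) and −0.37 for Nefh (adjusted p = 0.270), and Ina differed by −0.06 (adjusted p = 0.736). None was called, beside 0.764% of all genes. Nor was any called in MPTP-SU+S against Con (Nefm −0.27, Nefh −0.14, 0.704% of genes called) or MPTP-SU+T against Con (Nefm −0.28, Nefh −0.19, 0.156% called). In the order of group means, Nefm stood at 449 ± 25.1 CPM (SD, n = 4) in MPTP-SU, 523 ± 128 in MPTP-SU+T, 527 ± 166 in MPTP-SU+S, 637 ± 92.0 in Con and 1277 ± 828.9 in MPTP-Veh. The order for Nefh was the same, from 379 ± 28.4 CPM in MPTP-SU over 429 ± 75.7, 444 ± 126 and 490 ± 58.9 CPM to 689 ± 99.6 CPM in MPTP-Veh. Neighbours in this order overlapped, apart from Con and MPTP-Veh.

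**Figure D3:**
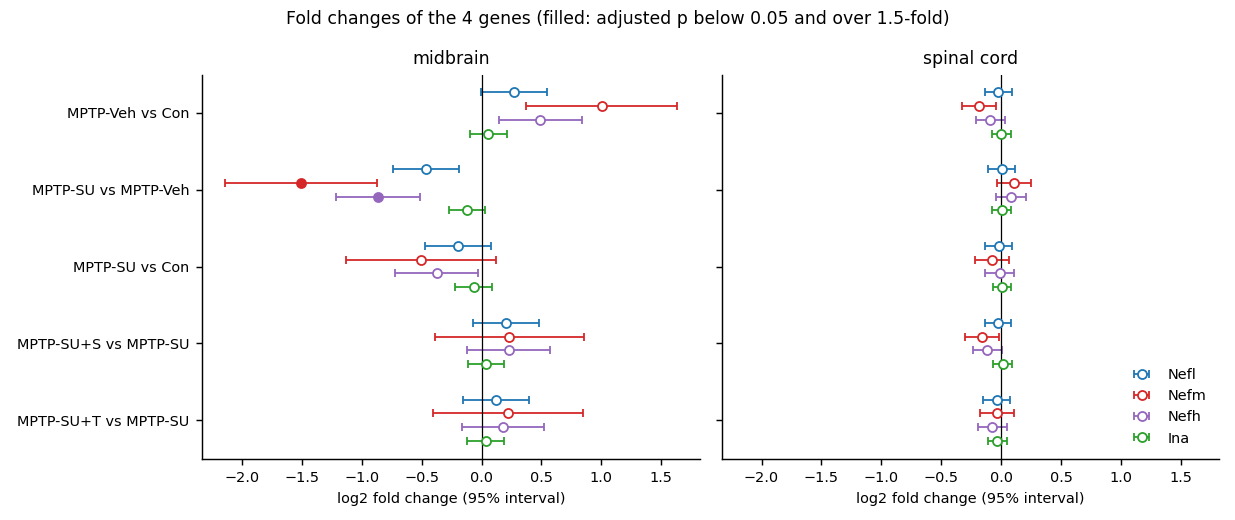
The x axis gives the log2 fold change with its 95% interval for each of 5 comparisons (rows) in the midbrain (left) and the spinal cord (right), with 1 colour per gene and filled circles for called changes. The 2 filled circles are Nefm and Nefh in midbrain MPTP-SU against MPTP-Veh, at −1.51 and −0.86, and the spinal cord values all lie within 0.2 of 0.

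The antagonist groups asked whether blocking CB1 or PPARγ changed the response to SUEHP. With the CB1 antagonist, Nefm measured 775, 440, 463 and 431 CPM and Nefh 630.0, 350, 398 and 397 CPM in the 4 midbrain libraries. With the PPARγ inhibitor, Nefm measured 428, 485, 711 and 468 CPM and Nefh 371, 401, 540.2 and 403 CPM. In each group 1 library lay near the Con or MPTP-Veh level (library 1 of MPTP-SU+S and library 3 of MPTP-SU+T) and the other 3 within or near the MPTP-SU range. MPTP-SU+S differed from MPTP-SU by 0.23 for Nefm (95% interval −0.39 to 0.86), 0.23 for Nefh (−0.12 to 0.57), 0.21 for Nefl (−0.07 to 0.48) and 0.04 for Ina (−0.12 to 0.19). MPTP-SU+T differed from MPTP-SU by 0.22 for Nefm (−0.40 to 0.84), 0.18 for Nefh (−0.17 to 0.53), 0.12 for Nefl (−0.16 to 0.40) and 0.04 for Ina. The intervals for Nefm hold both no change and increases of over 1.5-fold. With edgeR no gene of 16629 was called in either comparison (274 and 283 genes had an unadjusted p below 0.05).

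Both antagonist groups were lower than MPTP-Veh in Nefm and Nefh, comparisons that share their MPTP-Veh libraries with the one above. MPTP-SU+S gave −1.28 for Nefm (adjusted p = 0.0226) and −0.63 for Nefh (adjusted p = 0.0306), with 5.66% of all genes called. MPTP-SU+T gave −1.29 for Nefm (adjusted p = 0.0351) and −0.68 for Nefh (adjusted p = 0.0379), with 3.8% called. The MPTP-SU+T libraries lay below all MPTP-Veh libraries for both genes, in a comparison where 15.9% of all genes did not overlap, and those of MPTP-SU+S overlapped them. Without library 4 of MPTP-Veh, Nefm was still called in both, at −0.72 (adjusted p = 0.0269, 1.41% of genes called) and −0.73 (adjusted p = 0.0333, 0.814% called), while Nefh was called for MPTP-SU+T alone (−0.59, adjusted p = 0.0400) and stood at −0.54 (adjusted p = 0.0454) for MPTP-SU+S. Both calls were lost when library 2, 3 or 4 of MPTP-SU+S was left out (adjusted p of Nefm 0.0691 to 0.0828), and when library 1, 2 or 4 of MPTP-SU+T was (0.0969 to 0.113). With all libraries kept, neither gene was called in MPTP-SU+T with the replicate number as a block (Nefm −1.19, adjusted p = 0.0607, Nefh −0.67, adjusted p = 0.0565).

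The genes that build, carry, modify and degrade neurofilaments were counted in midbrain MPTP-SU against MPTP-Veh, where the median of all genes was 0.00. Of all 16629 genes, 9.1% were called as lower there and 4.35% as higher. Of the 12 other intermediate filament genes 4 were called as lower and none as higher, with a median of −0.77. Nes fell by 1.71 (adjusted p = 0.0184), Gfap by 1.03 (adjusted p = 0.0429), and the nuclear lamin genes Lmnb2 by 0.72 (adjusted p = 0.0369) and Lmna by 1.13 (adjusted p = 0.0440), the last named after its values were seen. Prph differed by −1.21 (adjusted p = 0.0630) and Vim by −0.41 (adjusted p = 0.134). Of the 14 linker and transport genes, 3 were called as lower, the kinesin light chains Klc2 (−0.92) and Klc1 (−0.72) and the dynactin subunit Dctn1 (−1.08). Of the 14 tail kinase and phosphatase genes 2 were, the Cdk5 activator Cdk5r2 (−1.48) and the kinase Gsk3a (−0.62). Of the 10 turnover genes 3 were, the ubiquitin ligase Stub1 (−1.32), the chaperone gene Dnajb2 (−1.25) and the calpain Capn1 (−0.88). Of the 18 microtubule and spectrin genes 3 were, the tau gene Mapt (−0.82), Stmn3 (−1.13) and the spectrin of axon initial segments Sptbn4 (−1.08). Of the 5 mRNA-binding genes none was called. No gene of these 6 lists was called as higher. Without library 4 of MPTP-Veh none of the 15 genes was called, since their fold changes then lay between −0.57 and −0.24, but 9 of the 15 still had an adjusted p below 0.05. Among these were Stub1 (−0.53, adjusted p = 0.000933), Mapt (−0.40, adjusted p = 0.00163), Klc2 (−0.44, adjusted p = 0.00773), Cdk5r2 (−0.53, adjusted p = 0.0116) and Nes (−0.57, adjusted p = 0.0264), while Gfap was at −0.30 (adjusted p = 0.318). In midbrain MPTP-Veh against Con and in MPTP-SU against Con, none of the genes in these lists was called.

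Markers of other cells and regions were read in the same midbrain groups, and some of them differed between groups. Of 12 pan-neuronal genes 6 were called as lower in MPTP-SU than in MPTP-Veh, and none as higher, beside 9.1% of all genes called as lower. Their sum ranged from 6505 to 7398 CPM in MPTP-SU, from 7387 to 8104 CPM in Con and from 7687 to 13391 CPM in MPTP-Veh, the last value being library 4. Without that library none of the 12 was called. The 10 thalamic genes summed to 1107 to 2055 CPM in MPTP-SU against 907 to 1312 CPM in MPTP-Veh, so the sums overlapped. Of these 10 genes, 9 had a positive fold change. The 10 forebrain genes summed to 702 to 1822 CPM in Con against 384 to 536 CPM in MPTP-Veh, and the choroid plexus genes reached 1248 CPM in 1 Con library. The sums of the 10 dopamine neuron genes overlapped, at 368 to 625 CPM in MPTP-SU and 364 to 680 CPM in MPTP-Veh. Among these genes Th and Slc6a3 overlapped as well. En1 did not, at 4.84 to 10.3 CPM in MPTP-SU and 14.8 to 46.2 CPM in MPTP-Veh, where 11.3% of all genes were lower without overlap. None of the markers in these lists was at 0 in every library of a group. Motor neuron content could not be followed in the midbrain by Mnx1, which was at 0 in all 20 libraries. The part of these cells and regions in the neurofilament changes was not tested.

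In the spinal cord none of the 4 genes was called between groups. Nefm measured 3463, 2816, 3212 and 3615 CPM in Con, 3196, 2788, 2802 and 2766 CPM in MPTP-Veh, and 2873, 3097, 3007 and 3447 CPM in MPTP-SU. MPTP-Veh differed from Con by −0.18 (SE 0.07, adjusted p = 0.284) and MPTP-SU from MPTP-Veh by 0.11 (SE 0.07, adjusted p = 0.999), each with overlapping groups. Nefh differed by −0.09 and 0.08 in these comparisons, Nefl by −0.02 and 0.00 and Ina by 0.00 and 0.00, with standard errors of 0.04 to 0.06. The widest difference involving any member was MPTP-SU+S against Con, at −0.24 for Nefm (adjusted p = 0.0881) and −0.13 for Nefh (adjusted p = 0.241), where 0.03% of genes were called. For Nefh those groups did not overlap, as was the case for 5.75% of all genes, with 2249, 2162, 2184 and 2217 CPM in MPTP-SU+S against 2384, 2254, 2417 and 2556 CPM in Con. MPTP-SU+S differed from MPTP-SU by −0.16 for Nefm (adjusted p = 0.899), and MPTP-SU+T from MPTP-SU by −0.03 (adjusted p = 0.880), with 0% and 0.024% of genes called. No member was called in any of the spinal cord comparisons between groups, where edgeR called 0% of 16682 genes for MPTP-Veh against Con (2139 at an unadjusted p below 0.05) and 0% for MPTP-SU against MPTP-Veh (636 at an unadjusted p below 0.05). The spinal cord interval for MPTP-SU against MPTP-Veh was −0.04 to 0.25 for Nefm and −0.04 to 0.20 for Nefh, beside midbrain values of −1.51 and −0.86.

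Whether the tissues responded differently was tested directly as an interaction in 1 model of all 40 libraries. For MPTP-SU against MPTP-Veh, the fold change was higher in the spinal cord than in the midbrain by 1.60 for Nefm (SE 0.31, adjusted p = 0.00181) and by 0.94 for Nefh (SE 0.18, adjusted p = 0.00124). Nefl differed by 0.46 (adjusted p = 0.0256, under the fold threshold) and Ina by 0.12 (adjusted p = 0.241). Of the 4 genes, 2 were called beside 12.1% of 17426 genes. Without library 4 of midbrain MPTP-Veh the differences were 1.04 for Nefm (adjusted p = 0.0011) and 0.83 for Nefh (adjusted p = 0.00153), with 3.9% of genes called. For MPTP-Veh against Con, the fold change of Nefm was lower in the spinal cord by 1.17 (adjusted p = 0.0461), and that of Nefh by 0.57 (adjusted p = 0.0564), beside 2.45% of genes called. Without library 4 the Nefm difference was −0.63 (adjusted p = 0.0973) and no member was called, beside 0.55% of genes. The Nefm call was also lost on leaving out any 1 midbrain Con library, any 1 spinal cord MPTP-Veh library, or library 1, 3 or 4 of spinal cord Con.

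Ratios of the members within a library do not depend on the scaling of libraries. A trend on GC content and length was not removed from them, and GC is 48.8% for Nefl against 57.8% for Nefm and 58.4% for Nefh. In midbrain Con the counts of Nefm were 0.84, 0.67, 0.74 and 0.73 of those of Nefl, in MPTP-Veh 1.05, 0.85, 0.91 and 1.87, and in MPTP-SU 0.55, 0.60, 0.60 and 0.66. MPTP-Veh was above Con in every library and MPTP-SU below Con in every library. The log2 ratio differed by −0.88 between MPTP-SU and MPTP-Veh, by 0.58 between MPTP-Veh and Con and by −0.30 between MPTP-SU and Con, each with p = 0.0286 in an exact two-sided permutation test, the smallest p that 4 against 4 libraries allow. The ratio of Nefh to Nefl was 0.62, 0.54, 0.56 and 0.58 in Con, 0.72, 0.68, 0.70 and 0.61 in MPTP-Veh and 0.46, 0.49, 0.54 and 0.56 in MPTP-SU. It differed by −0.41 between MPTP-SU and MPTP-Veh (exact permutation p = 0.0286) and by 0.24 between MPTP-Veh and Con (exact permutation p = 0.0571). The ratio of Ina to Nefl differed by 0.32 between MPTP-SU and MPTP-Veh (exact permutation p = 0.114). Over the 45 ratio comparisons made, the lowest adjusted p was 0.0714, so none passed 0.05. Without library 4 of MPTP-Veh, the difference between MPTP-Veh and Con was 0.33 for Nefm/Nefl, and those between MPTP-SU and MPTP-Veh were −0.63 for Nefm/Nefl and −0.46 for Nefh/Nefl (exact permutation p = 0.0571 each, the smallest possible with 3 libraries against 4). That library also stood alone in Nefm to Nefh, at 3.05 against 1.09 to 1.46 in the other 19 midbrain libraries.

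Between tissues the ratios of Nefh and Ina to Nefl separated and that of Nefm overlapped. In the spinal cord Nefm was 1.01 to 1.36 of Nefl and Nefh 0.794 to 0.940 of Nefl, while in the midbrain without that library Nefm was 0.53 to 1.05 and Nefh 0.44 to 0.72. The spinal cord libraries had Ina at 0.120 to 0.149 of Nefl, below the midbrain libraries at 0.251 to 0.471. Between Con libraries of the tissues the log2 ratio to Nefl differed by 0.68 for Nefm, 0.62 for Nefh and −1.56 for Ina (exact permutation p = 0.0286 each, adjusted p = 0.0714). In MPTP-Veh the Nefm/Nefl ratio differed between tissues by −0.05 (exact permutation p = 0.943), or by 0.20 without library 4 (exact permutation p = 0.171), with overlapping libraries.

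**Figure D4:**
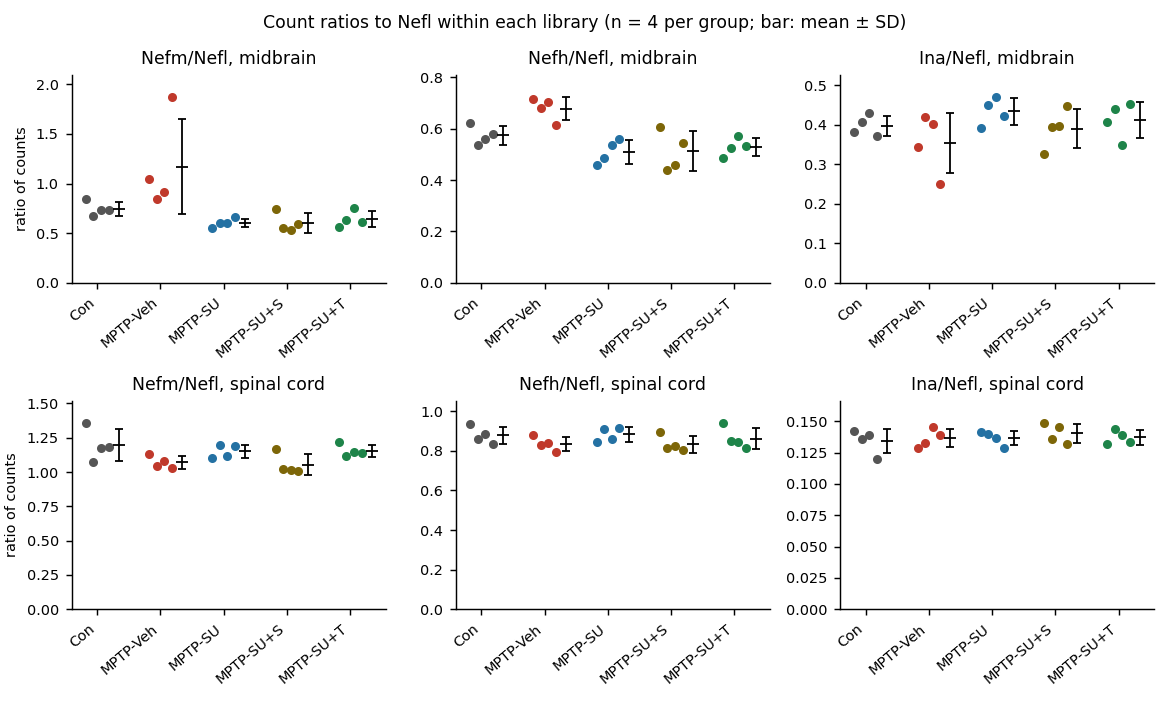
Each panel plots the ratio of counts of Nefm, Nefh or Ina to those of Nefl within a library (y axis, from 0), with 4 points per group and a bar for their mean ± SD. In the midbrain the Nefm/Nefl ratio is 0.55 to 0.66 in MPTP-SU and 0.85 to 1.87 in MPTP-Veh, whereas in the spinal cord it lies between 1.01 and 1.36 in all groups.

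The 3 neurofilament genes varied together across the 20 midbrain libraries, and Ina followed them less. On log2 CPM, Nefm and Nefh had r = 0.929 and rho = 0.958, Nefl and Nefm r = 0.936 and rho = 0.850, and Nefl and Nefh r = 0.885 and rho = 0.826, each with an adjusted permutation p of 3e-05 over 12 correlations. Leaving out the 2 libraries farthest from the median, r was 0.978, 0.876 and 0.848 in this order, and on deviations from group means it was 0.816, 0.940 and 0.818. Ina had r = 0.513 with Nefh (adjusted permutation p = 0.0338; rho = 0.504, adjusted p = 0.0528), which fell to 0.06 on deviations from group means, and r = 0.350 with Nefm and 0.299 with Nefl. In the spinal cord Nefm and Nefh again had r = 0.887 and rho = 0.874 (adjusted permutation p = 3e-05), 0.902 without the 2 farthest libraries and 0.875 within groups. Nefl had r = 0.527 with Nefm and 0.609 with Nefh there, but these rested on 2 libraries (library 4 of Con and library 4 of MPTP-SU) and were 0.058 and 0.228 without them. Ina had r from −0.140 to 0.093 with the 3 others in the spinal cord, but this depended on the scaling. With plain library sizes r was 0.667 with Nefl (adjusted permutation p = 0.00405), 0.464 with Nefm and 0.456 with Nefh, and the midbrain r of Ina with Nefh was 0.441 (adjusted permutation p = 0.0609). The libraries of a tissue share their preparation, groups and scaling.

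**Figure D5:**
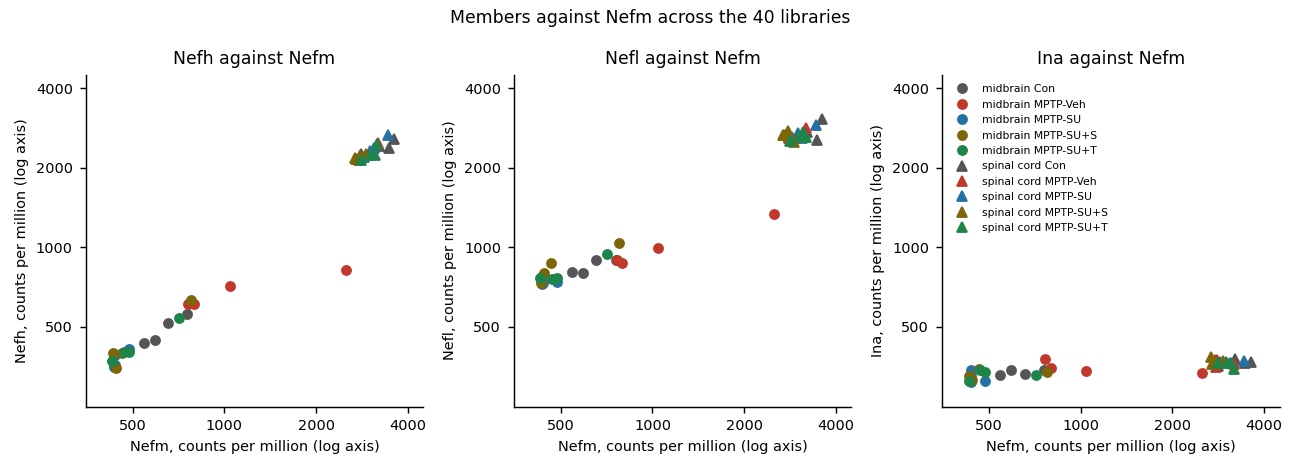
Each panel plots the CPM of Nefh, Nefl or Ina (y axis, log) against those of Nefm (x axis, log) in 40 libraries, with circles for midbrain and triangles for spinal cord and 1 colour per group. Nefh and Nefl climb with Nefm and the spinal cord libraries form a separate group at the upper right, while Ina stays between 309 and 386 CPM.

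The genes whose pattern over the 20 midbrain libraries was most like the mean log2 CPM of the 4 members were the cell adhesion gene Iglon5 (r = 0.986), the microtubule-associated protein gene Map1a (0.958), Ccdc92 (0.957), Habp4 (0.956) and the glycolytic enzyme gene Pfkp (0.956), of 16625 genes ranked. Without library 4 of MPTP-Veh, Iglon5 stayed first (0.975), followed by Chga (0.960), Cabp1 (0.943), Map1a (0.939) and Habp4 (0.939). In the spinal cord the 5 most alike were Prpf38b (0.858), Srsf4 (0.855), Chgb (0.853), Sqstm1 (0.842) and Bex3 (0.841), and Prph ranked 23 (0.804).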

How the data were processed

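RNA-seq was carried out on 20 midbrain and 20 spinal cord libraries, prepared with the CORALL RNA-seq V2 kit and read as paired ends on a NovaSeq. According to the submitters' processing notes, fastp, STAR, Salmon and GATK were used with the build GRCm39, and the versions were not given in the sources used here. The deposited values were estimated counts per gene symbol, already whole numbers and not normalised by the authors.

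Counts were tested with edgeR 4.0.16 (R 4.3.3), using filterByExpr, TMM scaling and the quasi-likelihood test, in 1 model of 5 groups per tissue (16629 and 16682 genes) and 1 model of all 40 libraries for comparisons of the tissues. P-values were adjusted with Benjamini-Hochberg over all genes tested. A gene was called at an adjusted p below 0.05 and a fold change above 1.5. CPM used TMM factors, and TPM used the longest GENCODE vM21 transcript. Ratios were tested with exact permutation tests and correlations with 100000 permutations on log2 CPM (prior count 2). The scripts were tested on simulated data. DESeq2 1.42.0, limma-voom 3.58.1, other scalings and filters, removal of a GC and length trend, the compared groups alone, a replicate block and leaving out each library were tried as alternatives. Total counts per library differed by less than 1.5 times within a tissue.

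The members, lists and tests were chosen with earlier results of these data known. All 4 members were named, as were Prph, Vim, Nes and Gfap and, for each list and comparison, up to 3 called genes with the smallest p, and per tissue the 5 genes most correlated with the mean of the members. The labels and the study's methods name different RNA extraction reagents.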

Additional observations from a re-analysis of the deposited data

Results flagged for a closer look

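Single outlying libraries were looked for in 70 sets of 4 values, each set being a member or a ratio in 1 group of 4 libraries. Of these sets 8 had one, where chance gives about 1 in 20 for independent sets. The sets share libraries and genes that vary together, so they are not independent. In the midbrain, library 4 of MPTP-Veh had 2506 CPM of Nefm against 762 to 1043 CPM in the others of its group, library 4 of MPTP-SU had 486.5 CPM of Nefm against 435 to 437 CPM, and library 1 of MPTP-SU+S had 775.3 CPM of Nefm against 431 to 463 CPM. The same MPTP-SU+S library had 630 CPM of Nefh against 349.9 to 397.7 CPM, and library 3 of MPTP-SU+T had 943.5 CPM of Nefl against 760.1 to 766 CPM. In the spinal cord, library 1 of MPTP-Veh had 3195.9 CPM of Nefm against 2766 to 2802 CPM, and library 1 of MPTP-SU+S had a Nefm/Nefl ratio of 1.17 against 1.01 to 1.02. Library 1 of spinal cord MPTP-SU+T was low in Ina, at 345.3 CPM against 364 to 367 CPM.

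The tissues differed, by the interaction test of edgeR, in the change of Nefm from Con to MPTP-Veh (−1.17 as spinal cord minus midbrain, adjusted p = 0.0461), and in the changes from MPTP-Veh to MPTP-SU of Nefm (1.6, adjusted p = 0.00181) and Nefh (0.94, adjusted p = 0.00124). The first of these calls was lost without library 4 of midbrain MPTP-Veh (−0.63, adjusted p = 0.0973).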

How the results depend on the processing

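Of 362 recomputed counts of members called, 336 stayed within 1.5 times the original and 26 moved. Of 1536 recomputed fold changes of members, 1491 kept their side of the threshold, 40 lost a call and 5 gained one, and no called change reversed. Those that kept it include the setting by adjusted p alone, which repeats the original fold changes. Counts of 0 that stayed at 0 are among the 336, and fold changes called in neither fit are among the 1491, also where their sign turned. These totals therefore do not measure how well the calls held, which the comparisons below give. For midbrain MPTP-Veh against Con, 0 members were called at first, 1 with DESeq2, and 0 to 1 on leaving out each library. For midbrain MPTP-SU against MPTP-Veh, the 2 calls became 1 with the GC and length trend removed, 1 with that and the replicate block together, and 0 in the compared groups alone. For the difference between tissues in MPTP-Veh against Con, the single call became 0 with library size alone, without a low-count filter, with limma-voom, with the replicate block and in the compared groups alone, 2 with DESeq2 (where 7.81% of all genes were called, against 2.45%), and 0 to 2 on leaving out each library. For the difference in MPTP-SU against MPTP-Veh, the 2 calls became 1 in the compared groups alone (0.258% of all genes, against 12.1%). The cause was not tested. The number of all genes called in midbrain MPTP-SU against MPTP-Veh was 2237, 572 without library 4 of MPTP-Veh and 0 in the compared groups alone, and in MPTP-Veh against Con it was 3, 446 with DESeq2 and 1093 without library 3 of MPTP-Veh. Scaling by library size alone moved the median of all genes in midbrain MPTP-SU against Con to −0.11. Same-numbered libraries were not treated as pairs, since the correlation of their deviations had a median of 0.02 in the midbrain (−0.17 to 0.38, over 0.1 in 13 of 40 pairs), 0.00 in the spinal cord (−0.17 to 0.23, over 0.1 in 6 of 40) and 0.06 between the tissues (−0.19 to 0.34, over 0.1 in 4 of 20). With the replicate block, midbrain MPTP-SU against MPTP-Veh gave 2 calls (Nefm −1.43, adjusted p = 0.0145), and MPTP-SU+T against MPTP-Veh gave 0 (Nefm −1.19, adjusted p = 0.0607). With plain library sizes 10 of 12 correlations kept their side of the threshold, that of Nefl with Ina in the spinal cord gained it and that of Nefh with Ina in the midbrain lost it. No ratio test passed after adjustment, so their alternatives had no call to keep or lose. With the mean transcript length 7 of 8 median TPM levels moved.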
